A study of Homo sapiens with 15 samples.

Results

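A set of 9 interferon and double-stranded RNA response genes was examined, IFIH1, MAVS, IRF7, ISG15, IFI27, OAS1, OASL, MX1 and IFI44L. They were listed by name, and each was measured over the CpGs within 1 kb of any of its annotated transcript starts. All 9 were found among 19970 protein-coding genes of chromosomes 1 to 22 and X, and all 9 were among the 19382 with enough CpGs and reads to be tested. The measurement is mC, the number of bisulfite reads that kept a C divided by all reads over the same CpGs, given here in percent. Unmethylated cytosine is read as T after bisulfite treatment, so a kept C marks a methylated CpG. Genomic DNA came from HCT116, an established human colorectal carcinoma cell line, in which doxycycline switches on a short hairpin RNA (shRNA) that targets UHRF1 or DNMT1. DNMT1 is the enzyme that keeps up methylation when DNA is copied, and UHRF1 recruits it. The shUHRF1 cells were 3 clones, each grown from a single cell (Cl.3, Cl.6 and Cl.9), while shDNMT1 was carried by 2 populations kept in bulk (R1 and R2). Baseline cells were taken on day 14 without doxycycline, Knockdown cells on day 14 after 14 days at 10 ng/mL, and Recovery cells on day 28 after 14 days with and then 14 days without the drug. This gives 15 libraries in 6 groups, with no Baseline library of day 28. The shRNA, the kind of population (clone or bulk) and the deposited count table differ together, so their parts in any difference between shRNAs cannot be told apart. Among the clones, Cl.3 and Cl.6 share a count table and Cl.9 has its own. Cl.9 was also read more deeply, at a median of 20 to 21 reads per CpG against 11 to 13 in Cl.3 and Cl.6. Nothing in these data reports RNA or protein, so neither the depletion of UHRF1 or DNMT1 nor the expression of the 9 genes was measured here.

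Double-stranded RNA in the cytoplasm is read as a sign of virus by sensors of the RIG-I family. IFIH1 encodes one of them, MDA5, which binds long double-stranded RNA and signals through the mitochondrial adaptor MAVS. The signal activates transcription factors of the IRF family, IRF7 among them, which switch on interferon genes. Secreted interferon then acts through JAK kinases and STAT proteins on the interferon-stimulated response element (ISRE), a short motif upstream of its target genes. Among those targets, ISG15 is a ubiquitin-like modifier, OAS1 makes the small nucleotide that turns on RNase L, OASL is its relative without that activity, MX1 is a GTPase that blocks viruses, and IFI27 and IFI44L are widely used readouts of an interferon response. In cancer cells that lose DNA methylation, repeats can be transcribed from both strands and this pathway can be switched on.

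The ISRE core was searched in the windows of the members on both strands, as GAAA, any 2 bases and GAAA again. It was found 25 times, in 8 of the 9 members (matches can overlap), and MAVS had none. In windows built the same way, 49.3% of 19970 protein-coding genes hold a match. Within 1 kb of the canonical start alone, 6 of the 9 members and 21.7% of all genes hold one, and with the whole motif inside 250 bp 4 members (IFIH1, ISG15, IFI27 and IFI44L) and 4.73% of all genes do. Only 4 of the matches contain a CpG, so only there can methylation sit inside the motif itself. These are shown because they differ in methylation, followed by the match nearest to the start of IFI44L, which has no CpG within 100 bp. Each is the hg38 reference sequence 5′ to 3′ on the strand of the match, with the 10 motif bases in capitals and 10 bases on each side.
IFI27 (minus strand, chr14:94110618-94110647): cattttccagGAAACCGAAActgcagacat
IRF7 (plus strand, chr11:615684-615713): aggctcccggGAAAGCGAAAcctaaacagt
ISG15 (plus strand, chr1:1013380-1013409): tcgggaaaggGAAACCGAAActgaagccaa
MX1 (plus strand, chr21:41420559-41420588): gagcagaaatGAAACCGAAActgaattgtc
IFI44L (plus strand, chr1:78620365-78620394): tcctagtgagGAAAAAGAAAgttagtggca
The IFI27 match lies 187 bp upstream of the canonical start, the ISG15 match 107 bp upstream and the IFI44L match 73 bp upstream. The IRF7 match lies 247 bp downstream of the canonical start, in intron 1, and runs past 250 bp. The MX1 match lies 5670 bp upstream of the canonical start and 36 bp from the nearest of the gene's upstream starts. A match is a description of these letters, and no protein binding was measured.

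Depth limits what single CpGs can show more than what the gene windows can. Libraries held 315707627 to 589607012 reads over CpGs, with a median of 11 to 21 reads per CpG. These totals count a read once at each CpG that it covers. Counted so, the windows of a member held 660 to 5572 reads per library. That gives 95% Wilson intervals no wider than 3.71 points on either side, for counting error only. The intervals take the counts as independent, so they can be too narrow where a read covers several CpGs. Genome-wide loss was the background at Knockdown with either shRNA and at Recovery against Baseline in the clones. The median mC over all 19382 genes tested was 47.03 to 55.9% at Baseline, 25.2 to 42.96% at Knockdown and 35.99 to 49.6% at Recovery, with Cl.9 the lowest clone at each stage. P-values are from edgeR's quasi-likelihood test over all genes, adjusted by the Benjamini-Hochberg method and called under 0.05. They weigh a change against how stage changes vary among populations of 1 cell line, with differences in level between populations removed. That spread is pooled over both shRNAs (6 residual degrees of freedom) and drawn towards that of all genes (29.3 prior degrees of freedom on average). A small p in the bulk populations therefore does not rest on R1 and R2 alone. Start regions, bins and single CpGs were not tested on their own, so their falls and rises are descriptions.

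At Baseline the members fell into groups by how their starts were methylated. IFIH1, MAVS, IRF7 and ISG15 start in unmethylated DNA. Within 200 bp of the canonical start, mC over all 15 libraries was 0 to 4.94% at IFIH1, 0 to 3.74% at MAVS, 0.118 to 2.86% at IRF7 and 0 to 1.799% at ISG15. Each highest value was that of Cl.6 at Baseline, and the cause was not tested. In every other library these starts were at or below 1.06, 0.875, 1.48 and 1.10%. The authors' domain lists put each of these 4 starts in an unmethylated region (UMR) in every library. This is the common state of a gene start, since 65.3% of 16865 genes with at least 5 CpGs and 20 reads there were at 10% or less in all 15 libraries. OASL was also low at its start, at 0 to 13.9% at Baseline over 5 CpGs, where the lists gave a low-methylated region. IFI27, OAS1 and IFI44L had methylated starts with few CpGs, at 61.2 to 83.1%, 55.6 to 70.2% and 87.2 to 100% at Baseline over 8, 3 and 4 CpGs. At OAS1 the methylation lay downstream, with 3 CpGs at 58.8 to 86.7% in the first 250 bp. Upstream of it, a single CpG within 250 bp was at 5 to 31.6%. Another at 250 to 500 bp was at 0 to 3.85%, both on few reads. MX1 stood apart from both groups, with a canonical start that is dense in CpGs (42 within 200 bp) and methylated at 95.7 to 98.2%. Not all of its starts were methylated. Beside one of its upstream starts, the 11 CpGs within 100 bp of the ISRE shown above were at 0 to 3.74% over all 15 libraries. Of all genes measured at their canonical start, 18.8% were at 80% or more in all 5 Baseline libraries. The profile of mC by distance from the start shows these shapes and where the loss fell.

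**Figure D1:**
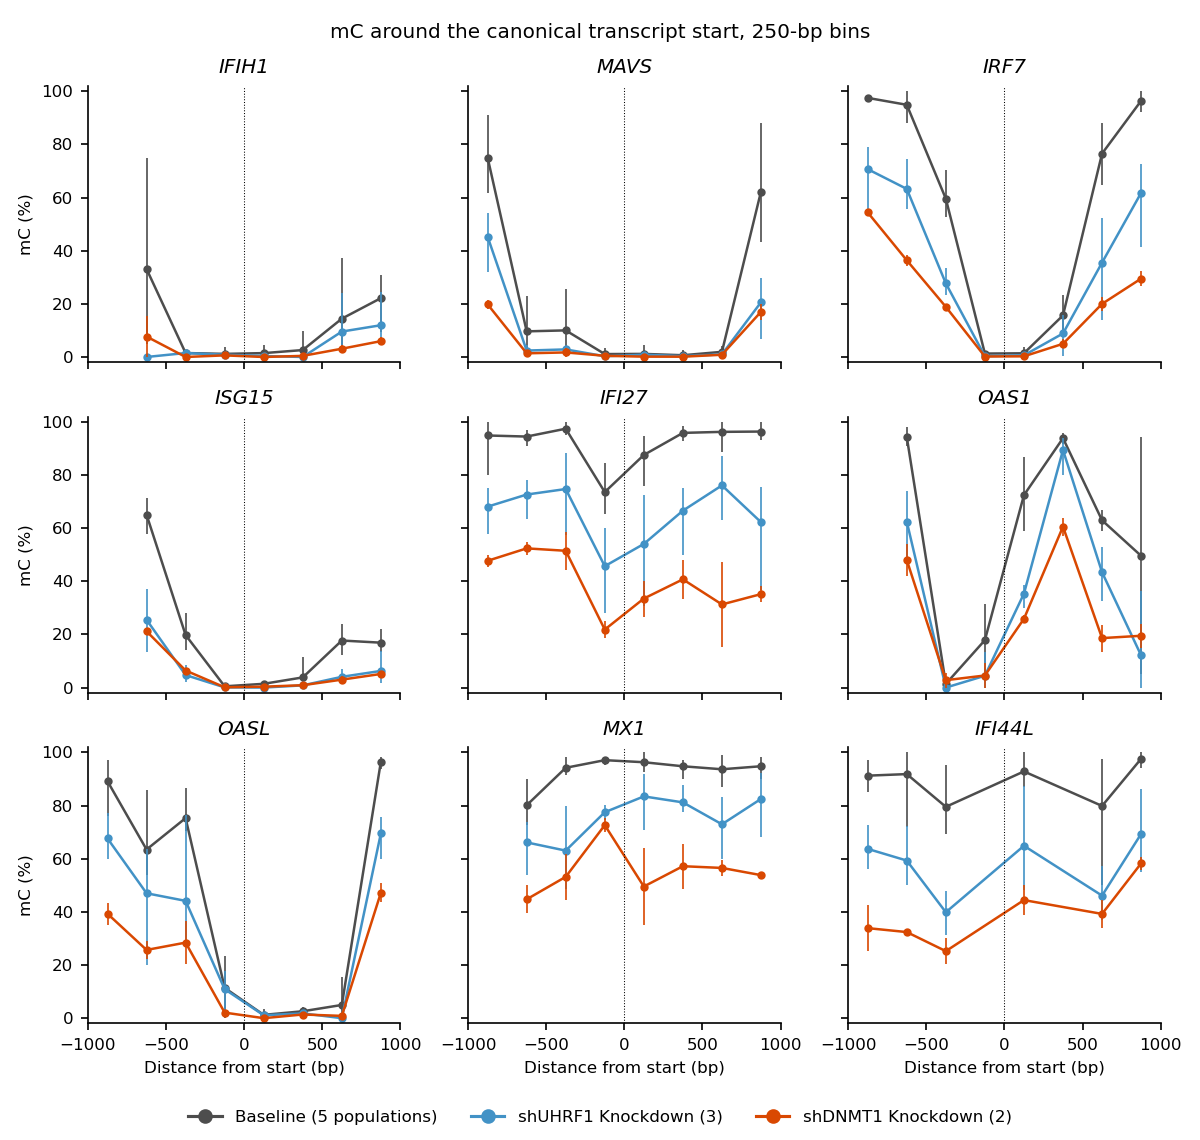
mC in percent (vertical axis) by distance from the canonical transcript start in bp (horizontal axis, upstream to the left) in 250-bp bins with at least 5 reads in every library. Points are means over populations at Baseline (grey, 5 populations), shUHRF1 Knockdown (blue, 3 clones) and shDNMT1 Knockdown (orange, 2 bulk populations), and bars run from the lowest to the highest population. IFIH1, MAVS, IRF7 and ISG15 are near 0 at the start in every group, IFI27, MX1 and IFI44L are methylated across it, and the loss lies where Baseline was high.

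The members are described in the order of the pathway, beginning with the sensor and the adaptor. IFIH1 (ENSG00000115267, chr2:162267074-162318684, minus strand, hg38) has 6 distinct starts in 4 separate start regions with 92 CpGs. In the clones IFIH1 fell from 42.4, 31.4 and 25.1% at Baseline to 26.7, 24.4 and 19.5% at Knockdown in Cl.3, Cl.6 and Cl.9, a fall of 9.44 ± 5.47 points (SD, n = 3) with an adjusted p of 0.00267. In the bulk populations R1 and R2 it fell from 34.4 and 28.1% to 14.8 and 12.7%, by 17.4 ± 2.97 points (SD, n = 2) with an adjusted p of 9.02e-07. Each of the 5 populations was lower at Knockdown, but the groups overlapped, since Cl.9 at Baseline was below Cl.3 at Knockdown. The whole-gene value mixes an unmethylated region of 67 CpGs around the canonical start with 3 methylated regions in the gene body, 25 CpGs in all. In the first region mC averaged 10.5% in the clones at Baseline and fell by 6.09 ± 0.751 points, while in the bulk populations it fell by 4.75 ± 1.57 points. In the third region, 11514 bp into the gene, it averaged 95.4% and fell by 19.6 ± 9.29 points in the clones, against 39.1 ± 4.47 points in the bulk populations. The share of the gene's reads that fell in the unmethylated region ranged from 66.1 to 80.2% among libraries, and the pooled value moves with it. With every CpG weighted equally, the fall in Cl.3, Cl.6 and Cl.9 was 5.38, 8.84 and 12.9 points in place of 15.7, 7.02 and 5.599, which turns the order of the clones around. This weighting was chosen after the data were seen. The windows of IFIH1 also hold starts of the neighbouring gene GCA.

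MAVS (ENSG00000088888, chr20:3846799-3876123, plus strand) has a single start region with 122 CpGs, dense in CpGs and largely unmethylated. In the clones MAVS fell from 10.3, 12.5 and 10.9% at Baseline to 4.19, 5.43 and 3.86% at Knockdown in Cl.3, Cl.6 and Cl.9, a fall of 6.73 ± 0.569 points (SD, n = 3) with an adjusted p of 4.21e-07. In R1 and R2 it fell from 7.497 and 7.27% to 3.47 and 2.704%, by 4.299 ± 0.383 points (SD, n = 2) with an adjusted p of 3.5e-05. Every Knockdown library was below every Baseline library of the 5 populations, at levels that leave little to lose. The loss lay at the edges of the unmethylated region. In the bin 750 to 1000 bp upstream, mC went from 71.2, 83.8 and 91.2% to 31.9, 54.3 and 49.6% in the clones, and from 67.1 and 61.9% to 21.5 and 18.1% in R1 and R2. With CpGs within 500 bp only, the fall in the bulk populations was not called (8 of 9 members).

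IRF7 (ENSG00000185507, chr11:612553-615983, minus strand), the transcription factor of the set, has 15 distinct starts along a short gene, so that its single window of 4393 bp with 244 CpGs covers nearly all of the gene. In the clones IRF7 fell from 58.7, 55.3 and 49.3% at Baseline to 43.4, 46.2 and 26.7% at Knockdown in Cl.3, Cl.6 and Cl.9, a fall of 15.7 ± 6.79 points (SD, n = 3) with an adjusted p of 8.46e-06. With shDNMT1, in R1 and R2 it fell from 49.96 and 54.6% to 23.1 and 20.1%, by 30.7 ± 5.44 points (SD, n = 2) with an adjusted p of 1.78e-10. The bulk populations did not overlap between stages, and in the clones the lowest Baseline value, in Cl.9, was above the highest Knockdown value, in Cl.6. Around the canonical start alone (1 kb on each side) the pooled reads of Cl.6 were at 35% at Baseline and 35.6% at Knockdown, although mC was lower at Knockdown in each of the 8 bins of 250 bp there. With CpGs weighted equally, over the 73 of the gene with at least 5 reads in every library, Cl.6 fell by 14.5 points. Within 200 bp of that start mC was 0.349 to 2.86% at Baseline in the 5 populations, the highest in Cl.6. The CpG inside the ISRE of intron 1 had 0 methylated of 158 reads summed over the 15 libraries, with 2 to 29 reads per library, which allows up to 1.899% in the sum.

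Loss was largest in percentage points among the interferon-induced members with methylated starts. IFI27 (ENSG00000165949, chr14:94104836-94116695, plus strand), with 131 CpGs in 3 start regions, was the most methylated member at Baseline in every population but Cl.9, where IFI44L was above it. In the clones IFI27 fell from 91.6, 90.8 and 89.2% at Baseline to 75.97, 69.4 and 50.3% at Knockdown in Cl.3, Cl.6 and Cl.9, a fall of 25.3 ± 12.1 points (SD, n = 3) with an adjusted p of 3.72e-12. In the bulk cells of R1 and R2 it fell from 89.3 and 89.98% to 48.6 and 43.7%, by 43.5 ± 3.95 points (SD, n = 2) with an adjusted p of 2.02e-14. No Knockdown library overlapped any Baseline library. All 3 start regions lost methylation, the one with the canonical start most, by 29.2 ± 13.1 points in the clones, against 51.3 ± 8.504 points in the bulk populations. The CpG inside the upstream ISRE was methylated in 100, 96.2 and 90.9% of reads at Baseline and 41.2, 46.7 and 23.5% at Knockdown in Cl.3, Cl.6 and Cl.9. In R1 and R2 it went from 88.5 and 93.5% to 20 and 18.2%. These values rest on 14 to 34 reads per library, and their 95% Wilson intervals at Baseline and Knockdown did not overlap in any population. Of the 4 members with a CpG inside a match, only IFI27 had more than 1 methylated read on it.

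**Figure D2:**
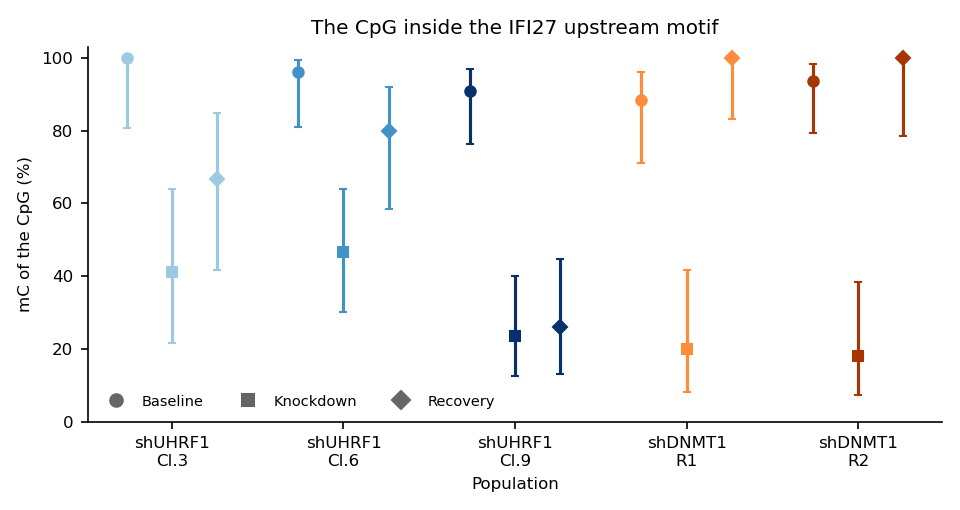
mC in percent (vertical axis) of the single CpG inside the ISRE 187 bp upstream of the IFI27 start, by population (horizontal axis) at Baseline (circles), Knockdown (squares) and Recovery (diamonds). Bars are 95% Wilson intervals, which cover counting error only. Knockdown values range from 18.2 to 46.7%, and Cl.9 was at 25.9% at Recovery while R1 and R2 were at 100%.

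IFI44L (ENSG00000137959, chr1:78619902-78646145, plus strand) has few CpGs, 55 over 4 start regions, of which 80% have no other CpG within 20 bp. In the clones IFI44L fell from 81.01, 75.4 and 90.2% at Baseline to 60.9, 50.1 and 46.1% at Knockdown in Cl.3, Cl.6 and Cl.9, a fall of 29.9 ± 12.6 points (SD, n = 3) with an adjusted p of 2.71e-08. In bulk populations R1 and R2 it fell from 81.1 and 83.8% to 40.4 and 41.02%, by 41.7 ± 1.44 points (SD, n = 2) with an adjusted p of 3.69e-09. Baseline and Knockdown did not overlap, and the clone with the highest Baseline level, Cl.9, had the lowest Knockdown level of the clones. Of its CpGs with at least 5 reads, 70.9, 62.96 and 88.9% were methylated at 80% or more at Baseline in Cl.3, Cl.6 and Cl.9, against 30.8, 12.96 and 9.09% at Knockdown. Within 100 bp of the ISRE shown above there was no CpG to measure, and the nearest lay 119 bp away.

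OAS1 (ENSG00000089127, chr12:112905856-112933219, plus strand) has 61 CpGs in 3 start regions. In the clones OAS1 fell from 67.3, 67.5 and 64.7% at Baseline to 54.5, 46.3 and 33.2% at Knockdown in Cl.3, Cl.6 and Cl.9, a fall of 21.9 ± 9.404 points (SD, n = 3) with an adjusted p of 1.21e-06. With shDNMT1, in R1 and R2 it fell from 69.03 and 71.3% to 32.97 and 33.9%, by 36.7 ± 0.936 points (SD, n = 2) with an adjusted p of 1.49e-09. The stages did not overlap. The region with the canonical start lost 28.01 ± 9.74 points in the clones, from a Baseline of 76.3, 77.1 and 75.1% in Cl.3, Cl.6 and Cl.9. OASL (ENSG00000135114, chr12:121017763-121039246, minus strand) has 109 CpGs in 3 start regions, and its loss lay mostly outside the 200 bp on each side of the canonical start. In the clones OASL fell from 71.3, 78.2 and 72.4% at Baseline to 64.7, 60.6 and 46.3% at Knockdown in Cl.3, Cl.6 and Cl.9, a fall of 16.8 ± 9.76 points (SD, n = 3) with an adjusted p of 3.63e-06. In R1 and R2 it fell from 71.7 and 67.9% to 39.7 and 40.3%, by 29.8 ± 3.12 points (SD, n = 2) with an adjusted p of 9.88e-09. Baseline and Knockdown did not overlap at OASL either, although Cl.3 lost only 6.63 points. Within 200 bp of its canonical start the clones were at 0, 13.9 and 10.3% at Baseline and 1.15, 11.4 and 8.602% at Knockdown. Its 2 downstream start regions, 6604 and 14604 bp into the gene, began at 95.1% and 93.3% in the clones and fell by 13.02 ± 6.52 points and 22.7 ± 10.7 points.

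MX1 (ENSG00000157601, chr21:41420020-41470071, plus strand) has 48 annotated transcripts with 34 distinct starts, in 5 start regions with 321 CpGs. In the clones MX1 fell from 73.6, 74.4 and 68.5% at Baseline to 61.3, 56.6 and 39.4% at Knockdown in Cl.3, Cl.6 and Cl.9, a fall of 19.7 ± 8.58 points (SD, n = 3) with an adjusted p of 1.38e-08. In the bulk populations R1 and R2 it fell from 73.3 and 69.6% to 40.7 and 37.2%, by 32.5 ± 0.166 points (SD, n = 2) with an adjusted p of 2.21e-11. Baseline and Knockdown did not overlap. Its start regions were unlike each other. The first, whose starts begin 6219 bp upstream of the canonical one, holds the ISRE shown above, and the CpG inside it had 0 methylated of 270 reads over the 15 libraries. The 11 CpGs within 100 bp of that ISRE were at 0 to 3.74%, so this part was unmethylated. Pooled, the first region was intermediate, at 35.8, 42.6 and 41.9% at Baseline in clones Cl.3, Cl.6 and Cl.9, against 34.6, 30.6 and 20.6% at Knockdown. The second region, around the canonical start, was at 91.99, 95.3 and 89.4% and fell to 78.8, 76.9 and 58.4%, and in R1 and R2 it went from 90.3 and 91.3% to 53.98 and 53.6%. The 42 CpGs within 200 bp of the canonical start rest on as few as 43 reads in a library.

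ISG15 (ENSG00000187608, chr1:1001138-1014540, plus strand) was, with MAVS, one of the pair of least methylated members. It has 277 CpGs in 2 start regions, and 198 of them lie around a start 12359 bp upstream, where HES4 also starts and mC was 0.221 to 4.202% at Baseline. The highest value there was that of Cl.6, while no other population was above 0.829%. Cl.6 went to 0.458% at Knockdown, which is part of its fall below. In the clones ISG15 fell from 9.78, 10.2 and 7.88% at Baseline to 4.37, 2.18 and 1.66% at Knockdown in Cl.3, Cl.6 and Cl.9, a fall of 6.53 ± 1.31 points (SD, n = 3) with an adjusted p of 9.51e-11. In the bulk cells of R1 and R2 it fell from 8.14 and 8.66% to 2.55 and 1.804%, by 6.22 ± 0.897 points (SD, n = 2) with an adjusted p of 8.44e-10. Baseline and Knockdown did not overlap. Around the canonical start mC was 16.1 to 21.8% at Baseline in the 5 populations, and there it fell by 13.1 ± 1.08 points in the clones, against 12.1 ± 2.42 points in the bulk populations. The ISRE 107 bp upstream lay in its unmethylated part, and the CpG inside it had 1 methylated of 329 reads over all libraries.

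**Figure D3:**
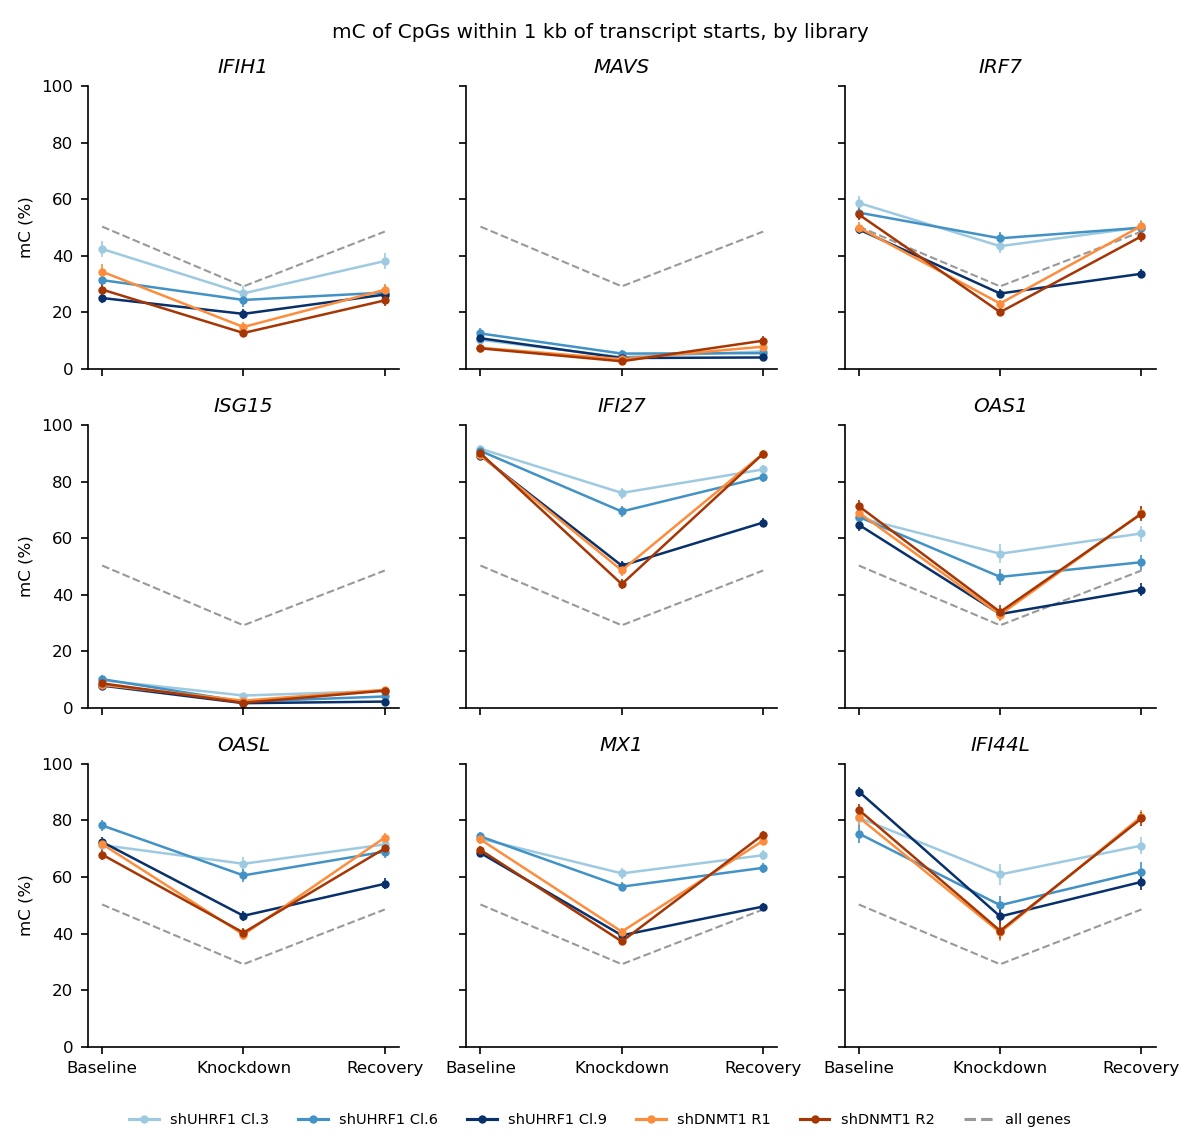
mC in percent (vertical axis) of the 9 members at each stage (horizontal axis), with a line per population and 95% Wilson intervals as bars. Blue lines are the shUHRF1 clones, orange lines the shDNMT1 bulk populations, and the dashed grey line is the median over populations of the all-gene median. Every member is lower at Knockdown in every population, and at Recovery most clones lie below Baseline while the bulk populations lie closer to it at most members, IFIH1 being an exception in these pooled reads but not with CpGs weighted equally.

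All 9 members were thus called lower at Knockdown with either shRNA. Over all genes tested, 97% were called lower with shUHRF1 and 98.8% with shDNMT1, so the count of members is that of the genome. The median fall over the members was 16.8 points with shUHRF1 against 13.9 points over all genes, and 30.7 against 23.9 points with shDNMT1. The members spread widely around that median. With shUHRF1, 2.29% of genes fell further than IFI44L and 8.47% further than IFI27, whereas 83.9% fell further than MAVS and 84.7% further than ISG15. The ISG15 value pools its canonical region, which fell by 13.1 points in the clones, with 198 nearly unmethylated CpGs around the start near HES4. With shDNMT1 the shares were 10.9% for IFI44L and 7.81% for IFI27. Among the clones, Cl.9 lost the most points at IRF7, IFI27, OAS1, OASL, MX1 and IFI44L, and it also had the lowest mC over the whole library at Knockdown, 42.8% against 62.5% in Cl.3 and 57.3% in Cl.6. Without Cl.9 all 9 members were still called. Among the 26 start regions, those of the lowest Baseline mC moved least, while those above 80% at Baseline varied widely in their fall. Without the replicate block, that is without the population in the model, IFIH1 was no longer called with shUHRF1 (8 of 9). The exact sign-flip permutation test over populations gave 0.25 for the fall of each member in the clones and 0.5 in the bulk populations, the smallest p that 3 and 2 populations allow.

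**Figure D4:**
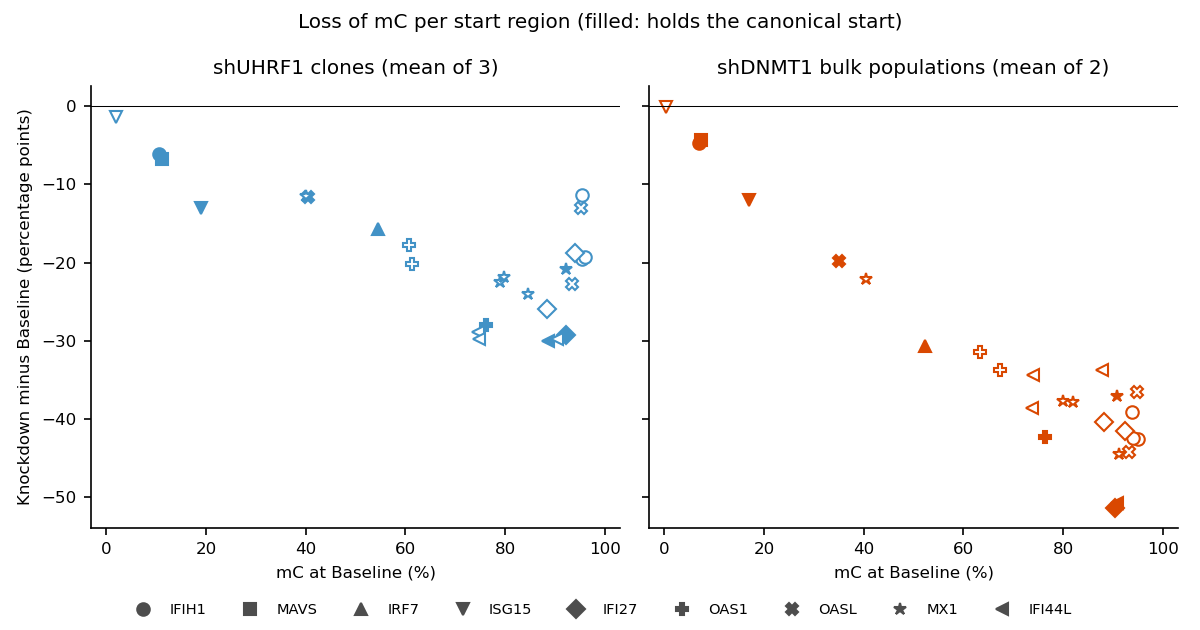
Knockdown minus Baseline in percentage points (vertical axis) against mC at Baseline in percent (horizontal axis) for the 26 start regions of the 9 members, as means over 3 shUHRF1 clones (left) and 2 shDNMT1 bulk populations (right). Symbols mark the gene, and filled symbols the region with the canonical start. Regions near 0 at Baseline moved least, and at a Baseline above 80% the mean fall ranged from 11.4 points at the second region of IFIH1 (4 CpGs, 2.89 points without Cl.9) to 29.98 points at the first of IFI44L in the clones.

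At the unmethylated starts the loss widened the unmethylated region. The UMR over the ISG15 start was 1656, 1717 and 1760 bp long at Baseline in clones Cl.3, Cl.6 and Cl.9, against 2427, 2643 and 2972 bp at Knockdown, and in R1 and R2 it grew from 1785 and 1656 bp to 3466 and 3588 bp. At the MAVS start it grew from 1736, 1582 and 1416 bp to 1980, 1756 and 2152 bp in the clones, and to 2981 and 9222 bp in R1 and R2. It was longer at Knockdown for all 4 of IFIH1, MAVS, IRF7 and ISG15 in all 5 populations. This too is what most genes did. Of the 12007 to 12186 genes whose start lay in a UMR at both stages, 93.8 to 99.9% had a longer one at Knockdown, with a median length of 1.19 to 1.59 times that at Baseline in the clones and 2.42 to 2.57 times in the bulk populations. New UMRs or low-methylated regions also appeared over methylated starts. The share of all genes with such a gain was not computed, so the gains are not read as particular to the members. At IFI27 the lists placed the start in a UMR in R1 and R2 at Knockdown and in a low-methylated region in Cl.9. In each of these it also lay in a partially methylated domain, where Baseline had been a highly methylated domain. At OAS1 the start was in a UMR or low-methylated region in all 5 populations at Knockdown and in none at Baseline. Its Baseline class was a partially methylated domain in all but Cl.9, which had none. At IFI44L the start was in a low-methylated region in R1 and a UMR in R2 at Knockdown. Its Baseline class was a partially methylated domain in all but Cl.9, where it was a highly methylated domain. A UMR here is a class of the lists, and these starts kept methylation. Within 200 bp of the canonical start at Knockdown, mC was 50% at IFI44L in R2. It was 40 and 26.1% at OAS1 in Cl.9 and R2, and 30.7 and 23.3% at IFI27 in R1 and R2. The MX1 canonical start was in no UMR or low-methylated region in any library. Domains were called in each library on its own, so their edges also move with the level of the library.

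At Recovery in the bulk populations, edgeR called none of the 9 members different from Baseline, and none of the 19382 genes (0% called in either direction). The unadjusted p was under 0.05 for 1 member, ISG15, and for 2.58% of all genes, and limma called none as well. In the clones, 8 of 9 members were called lower at Recovery than at Baseline, all but IFIH1, against 75% of all genes. The median change was a fall of 9.86 points over the members and 7.63 points over all genes, with the members at a higher Baseline (a median of 66.5 against 51.9%). Without the population in the model 4 members were called (MAVS, ISG15, IFI27 and IFI44L), and without Cl.9 there were 6, with IRF7 and OASL lost. With 1 transcript per gene IRF7 and OASL were lost and IFIH1 was called. OASL was also lost without Cl.6 and with CpGs within 500 bp, and IRF7 with a minimum of 5 reads per CpG and library.

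IFI27 stood at 84.3, 81.6 and 65.5% at Recovery in Cl.3, Cl.6 and Cl.9 and at 89.9 and 89.8% in R1 and R2. In the clones it remained 13.4 ± 8.94 points (SD, n = 3) below Baseline (adjusted p of 2.94e-07), and in the bulk populations the mean difference was 0.232 points. Without Cl.9 the change in the clones was -8.27 points. The single CpG in its ISRE was at 66.7, 80 and 25.9% in Cl.3, Cl.6 and Cl.9 and at 100% in both bulk populations. The Wilson intervals at Knockdown and Recovery overlapped in all 3 clones and in neither bulk population. IFI44L stood at 71.1, 61.95 and 58.3% at Recovery in Cl.3, Cl.6 and Cl.9 and at 81.4 and 80.7% in R1 and R2. The clones were 18.4 ± 11.8 points (SD, n = 3) below Baseline (adjusted p of 4.46e-05), the largest shortfall among the members, led by Cl.9 with 31.9 points, and without Cl.9 the change was -11.7 points. Over all genes, 4.602% had a larger one.

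OAS1 stood at 61.7, 51.5 and 41.8% at Recovery in Cl.3, Cl.6 and Cl.9 and at 68.8 and 68.6% in R1 and R2. The clones were 14.9 ± 8.71 points (SD, n = 3) below Baseline (adjusted p of 0.000483). OASL stood at 71.5, 68.99 and 57.6% at Recovery in Cl.3, Cl.6 and Cl.9 and at 73.96 and 70.1% in R1 and R2. In the pooled reads Cl.3 was close to its Baseline while Cl.9 was 14.8 points below its own, and the mean shortfall of 7.94 ± 7.59 points (SD, n = 3) was about as large as its SD (adjusted p of 0.0116). The change was -12.02 points without Cl.3 and -4.52 without Cl.9. The share of reads from the less methylated canonical region was 42.3% at Baseline and 37.4% at Recovery in Cl.3, and with CpGs weighted equally that clone was 4.502 points below Baseline. MX1 stood at 67.7, 63.3 and 49.6% at Recovery in Cl.3, Cl.6 and Cl.9 and at 72.9 and 74.99% in R1 and R2. The clones were 11.95 ± 6.58 points (SD, n = 3) below Baseline (adjusted p of 8.56e-05).

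MAVS stood at 6.19, 5.58 and 4.05% at Recovery in Cl.3, Cl.6 and Cl.9 and at 7.87 and 9.99% in R1 and R2. The clones stood 5.95 ± 1.62 points (SD, n = 3) below Baseline (adjusted p of 1.46e-05), with 32.9, 2.11 and 2.77% of the loss regained in Cl.3, Cl.6 and Cl.9. ISG15 stood at 5.99, 4.03 and 2.22% at Recovery in Cl.3, Cl.6 and Cl.9 and at 6.41 and 6.08% in R1 and R2. The clones stood 5.19 ± 1.24 points (SD, n = 3) below Baseline (adjusted p of 3.97e-07), with 29.998, 23.2 and 9.06% of the loss regained in Cl.3, Cl.6 and Cl.9. With CpGs within 500 bp only, the Recovery change in the clones was -2.02 points at MAVS and -1.88 at ISG15, where it was -11.2 with 1 transcript per gene. At these nearly unmethylated windows the regain is a share of a loss of under 10 points. The UMR over the ISG15 start, at 2324, 2643 and 2831 bp in the clones, was still longer than at Baseline, and at 1656 and 1846 bp in R1 and R2 it was close to it. Over all genes the UMR was longer at Recovery than at Baseline in 89.2 to 98.6% of cases in the clones and 45.3 to 46.6% in the bulk populations.

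IRF7 stood at 50.1, 49.9 and 33.6% at Recovery in Cl.3, Cl.6 and Cl.9 and at 50.6 and 46.9% in R1 and R2. The clones were 9.86 ± 5.28 points (SD, n = 3) below Baseline (adjusted p of 0.0037), and the change was -4.63 points, no longer called, when each CpG had to have 5 reads or more in all libraries. In R2 IRF7 was 7.69 points below Baseline, or 2.15 points with CpGs weighted equally, while the pooled value of R1 was 0.63 points above. IFIH1 stood at 38.1, 26.99 and 26.3% at Recovery in Cl.3, Cl.6 and Cl.9 and at 27.97 and 24.2% in R1 and R2. IFIH1 was the member that was not called in the clones, with a mean difference of 2.49 ± 3.21 points (SD, n = 3) below Baseline and an adjusted p of 0.471. The change was -1.596 points without Cl.3, -1.53 without Cl.6 and -4.34 without Cl.9. The pooled value of Cl.9 was 1.22 points above its Baseline, although every one of its start regions but the smallest was below. The share of reads from the unmethylated region was 80.2% in that clone at Baseline and 72.5% at Recovery. With CpGs weighted equally, Cl.3, Cl.6 and Cl.9 were 1.0005, 5.73 and 6.58 points below Baseline. In R1 and R2 the pooled value was 6.401 and 3.83 points below Baseline, a mean change of -5.11 points. The order of clones and bulk populations depends on the weighting, with -4.44 points in the clones and -1.11 in the bulk populations with CpGs weighted equally, and -2.94 and -0.92 with 1 transcript per gene.

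**Figure D5:**
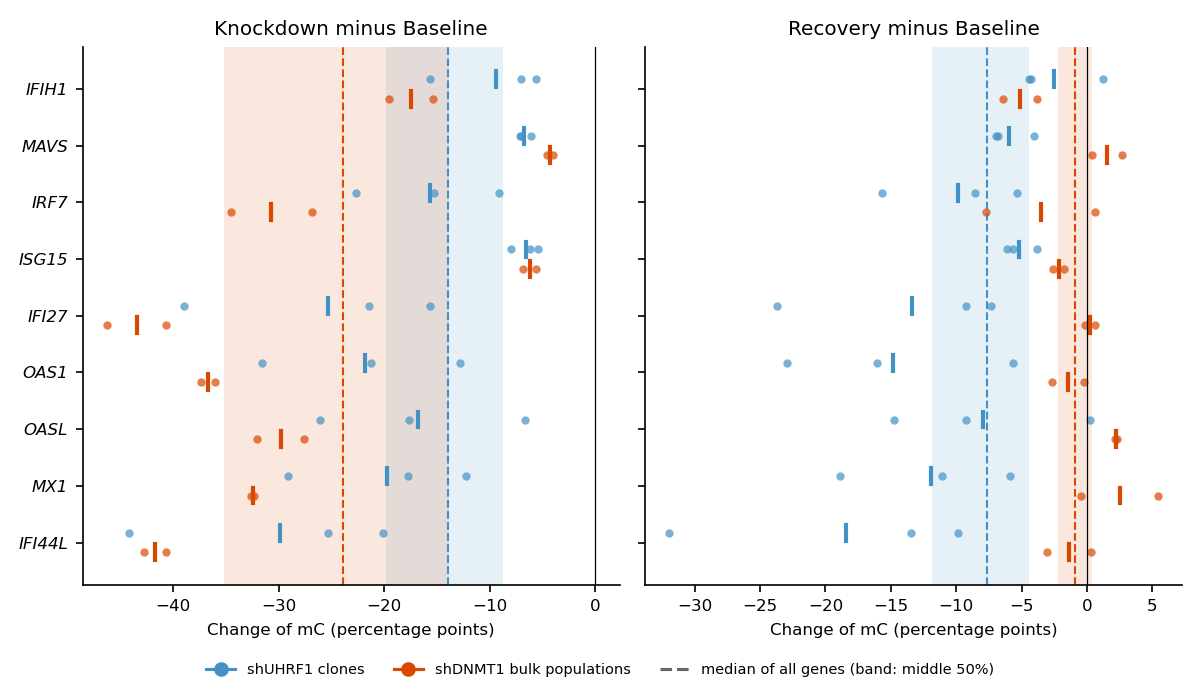
Change of mC in percentage points (horizontal axis) for each member (vertical axis) at Knockdown (left) and at Recovery (right), both against Baseline. Points are populations (blue, shUHRF1 clones, and orange, shDNMT1 bulk populations), short lines their means, dashed lines the median of all 19382 genes and bands their middle 50%. At Knockdown the means of IFI27, OAS1 and IFI44L lie beyond the bands on the side of larger falls and those of MAVS and ISG15 beyond them on the side of smaller falls, and at Recovery the orange points are spread around 0 while the blue points lie mostly below it. The ISG15 values pool both of its start regions, the larger of them nearly unmethylated.

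Between Knockdown and Recovery, all 9 members were called higher in the bulk populations, against 98.6% of all genes, with a median rise of 32.04 points over the members and 22.9 points over all genes. The members had also fallen further before, by a median of 30.7 against 23.9 points. In the clones 6 of 9 were called higher, IFIH1, ISG15, IFI27, OASL, MX1 and IFI44L, against 50.1% of all genes, with median rises of 7.004 and 6.04 points. IFI27 rose by 11.9 ± 3.48 points (SD, n = 3) in the clones and, with shDNMT1, by 43.7 ± 3.399 points (SD, n = 2) in the bulk populations. The count in the clones was 1 without Cl.6 (IFI27), 3 without Cl.9, 2 by limma and 0 without the population in the model. MAVS had the smallest rise in the clones, 0.781 points, with an adjusted p of 0.394, or 0.172 points without Cl.3.

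The difference between the shRNAs was tested as such. At Knockdown, IFIH1, IRF7, IFI27, OAS1 and MX1 lost less in the clones than in the bulk populations by edgeR (5 of 9, against 48.2% of all genes called in that direction and 0.227% in the other). On the log2 odds scale the loss of IRF7 was smaller by 1.04 (adjusted p of 0.00501) and that of IFI27 by 0.99 (adjusted p of 0.0119). In points, IFI27 fell by 25.3 ± 12.1 points (SD, n = 3) and by 43.5 ± 3.95 points (SD, n = 2). In the start region of IFIH1 with its canonical start the order was the other way around, since the bulk populations fell by 4.75 points and the clones fell by 6.09 points, which was not tested. The Cl.9 values lay close to those of the bulk populations, at 50.3% at IFI27 against 48.6 and 43.7% in R1 and R2. At Recovery, MAVS, ISG15, IFI27, MX1 and IFI44L stood further below Baseline in the clones than in the bulk populations (5 of 9, against 33.9% of all genes in that direction and 0.031% in the other). These counts rest on few populations. Neither count had a member left without R2 or without the population in the model, and without R1 there was 1 member in each (IRF7 and MAVS). Without Cl.3 or Cl.6 the Knockdown count was 2, and without Cl.9 the Recovery count was 3. The exact two-sided permutation test of 3 against 2 populations, on points, gave 0.2 for IRF7, IFI27, OAS1, OASL and MX1 at Knockdown. That is the smallest p that it allows. It also gave 0.2 for MAVS, which lost more points in the clones, from a higher Baseline. On the log2 odds scale the MAVS difference was -0.109 and was not called by edgeR (adjusted p of 0.793). The permutation test gave 0.4 for IFIH1, 0.6 for IFI44L and 1 for ISG15.

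The gene bodies outside the start windows served as a second reading of the same genes, for the 8 members with at least 5 CpGs there. At MAVS, whose start is unmethylated, the body of 550 CpGs was at 95.6, 95.9 and 94.3% in clones Cl.3, Cl.6 and Cl.9 at Baseline, 84.5, 79.8 and 62.3% at Knockdown and 90.2, 89.4 and 78.9% at Recovery. In R1 and R2 it was at 94.8 and 95.4%, 50.6 and 49.2% and 93.8 and 94.03%. The body of IFIH1 went from 92.7, 94.1 and 90.6% to 76.7, 70.2 and 57.4% and back to 83.1, 84.3 and 76.3% in the clones. All 8 bodies were lower at Knockdown in all 5 populations, and all 8 were below Baseline at Recovery as well. Over all 18496 genes with at least 5 CpGs and 50 reads per library there, 99.6% were lower in all 5 populations at Knockdown and 78.8% at Recovery.

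The rest of the pathway was read from 4 further lists of 115 genes, of which 109 were tested and 6 interferon genes had too few CpGs or reads. At Knockdown every tested gene of the 4 lists was called lower with either shRNA, so the counts (19 sensors, 15 interferons, 24 receptors, kinases and transcription factors, and 51 effectors) say no more than the genome does. Their medians differed. The 15 interferon genes, the ligands of the pathway, were at a median of 89.1% at Baseline in the clones, against 51.9% over all genes, and fell by 28.7 points with shUHRF1 and 47.8 with shDNMT1. IFNA7 went from 90.5 to 37.9% on average in the bulk populations and IFNA5 from 92.2 to 55.2% in the clones. The interferon-alpha genes are near-identical copies, so reads may be shared among them. Receptors, kinases and transcription factors were at 47.98% and fell by 13.3 points with shUHRF1, close to the all-gene median of 13.9 points. Of these, the transcription factors IRF8 and IRF9 fell most with either shRNA, IRF8 from 83.3 to 58.95% in the clones and IRF9 from 82.9 to 61.5%.

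Among the sensors, the median fall was 19.6 points with shUHRF1 and 31.5 with shDNMT1. ZBP1, a sensor of left-handed nucleic acid, went from 74.6 to 41.1% in the clones, and CGAS, the cytoplasmic DNA sensor, from 95.7 to 50.4% in the bulk populations. Among the effectors the median falls were 17.1 and 30.6 points, from median Baselines of 59.4 and 59.9%. SAMD9L went from 88.95 to 52.6% in the clones, and BST2, which tethers budding viruses to the cell, from 93.99 to 44.3% in the bulk populations. At Recovery in the clones, 16 of 19 sensors, 15 of 15 interferons, 16 of 24 receptors, kinases and transcription factors and 37 of 51 effectors were still called lower than Baseline, beside 75% of all genes. In the bulk populations no gene of these lists was called.

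Genes with the most similar levels over the 15 libraries were found by the root mean square difference of mC, for the 7 members whose mC spanned at least 20 points. SLC38A8 and PSTPIP1 were nearest to IFI27, at 1.49 and 1.496 points. BATF2 and BTN3A3 were nearest to IFI44L, at 2.598 and 3.11 points. CTXN2 and IL6 were nearest to MX1, at 1.97 and 2.07 points. FRMD4A and OR7C1 were nearest to OAS1, at 1.46 and 2.18 points, LLGL2 and ZSWIM8 were nearest to OASL, at 1.67 and 1.71 points, PAK6 and LAMTOR4 were nearest to IRF7, at 2.38 and 2.58 points, and NR1D2 and ERBIN were nearest to IFIH1, at 2.41 and 2.77 points. Many genes share the course of the genome-wide loss, so a near match says that Baseline level and loss were alike. MAVS and ISG15 spanned 9.84 and 8.49 points and were not compared.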

How the data were processed

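Whole-genome bisulfite reads were aligned by the authors with their Meth10X pipeline, and the submitters' processing notes name hg38. The authors deposited raw counts for each CpG and library, the reads that kept a C and the reads that covered it, in 3 tables with both strands summed. How duplicate reads and sequence variants were treated is not given in the sources used here. The authors also deposited a domain list per library, with classes called by MethylSeekR and, for highly methylated domains, bedtools 2.25.0. Here counts were summed over CpGs within 1000 bp of any GENCODE release 44 start, per gene and library. Genes holding 5 or more CpGs and 50 or more reads per library were fitted together over the 15 libraries with edgeR 4.0.16 (R 4.3.3), on methylated and unmethylated reads with the population as a block. Baseline and Knockdown of a population were parallel plates of the same cells, and Recovery came from the treated plate after washout. In the clones, deviations of a population from its group means correlated across genes by 0.204 to 0.359 between Baseline and a later stage. Between Knockdown and Recovery they correlated by 0.535 to 0.806. The block treats all stages as equally related, which limits the Recovery tests. With shDNMT1 the correlations were 0.0151 to 0.0451 in the bulk populations. No pair of libraries of the same shRNA and stage looked like duplicates (chi-square per degree of freedom of at least 6.24). limma 3.58.1 was the alternative test, and the model was tested on simulated data. The simulation changed few genes, in the shUHRF1 Knockdown group only, with library noise drawn independently. It therefore cannot vouch for calls under genome-wide loss or with related stages. The members and lists were chosen with earlier results of these data known. The text names all members, the 3 genes of each list with the largest called Knockdown change per shRNA (a selection of these is printed), and for each member spanning at least 20 points the 2 genes nearest in root mean square difference. The alternatives were limma, no block, each population left out, 500 bp windows, 1 transcript per gene, a minimum of 5 reads per CpG, no filter and fits of 1 shRNA. Equal weighting of CpGs was added after seeing the data. Sequences are from the hg38 reference genome.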

Additional observations from a re-analysis of the deposited data

Results flagged for a closer look

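The change from Baseline differed between the shRNAs for 5 members at Knockdown and 5 at Recovery, by edgeR's test of the difference itself with Benjamini-Hochberg adjustment. Values are differences of log2 odds of methylation, shUHRF1 minus shDNMT1. At Knockdown the difference was 0.84 at IFIH1 (adjusted p of 0.0309), 1.04 at IRF7 (adjusted p of 0.00501), 0.99 at IFI27 (adjusted p of 0.0119), 0.90 at OAS1 (adjusted p of 0.0302) and 0.73 at MX1 (adjusted p of 0.0188), all with a smaller loss in the clones. At Recovery it was -1.51 at MAVS (adjusted p of 0.00267), -0.91 at ISG15 (adjusted p of 0.0196), -1.50 at IFI27 (adjusted p of 0.00185), -0.95 at MX1 (adjusted p of 0.00634) and -1.33 at IFI44L (adjusted p of 0.0243), all with the clones further below Baseline. IFI27 and MX1 are in both sets, with opposite signs. The direction was that of 48.2% of all genes at Knockdown and 33.9% at Recovery. No member was left in either set without the population in the model, and none at Knockdown with 1 transcript per gene. With that choice IFIH1 changed by -4.04 points in the clones and -3.20 in the bulk populations, the other way around. Clones and bulk populations also differ in how they were made and in the count table that held them, which cannot be told apart from the shRNA.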

How the results depend on the processing

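The members called at Knockdown (9 with either shRNA), at Recovery in the bulk populations (0 against Baseline and 9 against Knockdown) and at Recovery against Baseline in the clones (8) stayed within 1.5 times their counts under every alternative, except that without the replicate block 4 members were called in the last. Counts of members called in the other comparisons moved more. For Recovery against Knockdown in the clones (6), there were 2 by limma, 0 without the replicate block, 1 with CpGs within 500 bp and 2 with 1 transcript per gene, and 1 to 5 with a population left out. For the difference between shRNAs at Knockdown (5), there were 0 without the block, 2 with CpGs within 500 bp and 0 with 1 transcript per gene, and 0 to 7 with a population left out. For the difference at Recovery (5), there were 3 by limma, 0 without the block and 2 with CpGs within 500 bp, and 0 to 7 with a population left out. Counts over all genes moved likewise, as 14534 against 5800 without the block at Recovery in the clones. For Recovery against Knockdown in the clones they went from 9709 to 0 without the block, 5641 within 500 bp, 2565 with 1 transcript and 3766 to 10007 with a population left out. The difference at Knockdown went from 9394 to 0, 4358, 2132 and 628 to 12524, and that at Recovery from 6569 to 1 without the block, 3502 within 500 bp and 228 to 10631 with a population left out. The cause was not tested, beyond that leaving out a population leaves fewer samples. Without R1 or R2 the bulk arm has 1 population, which is assumed to vary like the others. Of 270 recomputed member changes, 227 moved by less than the spread between populations, 43 moved by more and 0 changed sign after being called. Many of the 227 could not have moved further. Without the filter the member values are the same, and leaving out a population cannot shift a mean of 2 or 3 by a full SD. All 43 came from the other windows, the minimum of 5 reads per CpG and the equal weighting. With 1 transcript per gene the Knockdown change of IFIH1 in the bulk populations was -3.203 points (against -17.4 over all starts), that of OASL -18.9 and that of ISG15 -12.1, or -13.1 in the clones. Within 500 bp MAVS changed by -2.07 points in the clones and -0.371 in the bulk populations, and ISG15 by -2.33 and -0.723. With at least 5 reads per CpG in every library, which 29.9% of the CpGs of IRF7 had, IRF7 changed by -9.36 points at Knockdown in the clones (-15.7 over all CpGs) and by -4.63 at Recovery (-9.86). The same minimum moved MAVS and ISG15 the other way, to larger falls at Knockdown. They changed by -8.64 and -9.62 points in the clones and by -6.40 and -8.80 in the bulk populations. Depth thus limits single CpGs, small start regions and the windows of IRF7, MAVS and ISG15, and 2 or 3 populations limit every test.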

Other observations

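CpGs were also split by spacing within the windows of each member, into those with no other CpG within 20 bp (low density) and the rest (high density). In 8 of 9 members the low-density CpGs lost more at Knockdown with either shRNA, the exception being OAS1. That is the common course, taken with both shRNAs by 86.9% of 17920 genes with at least 5 CpGs and 50 reads per library in each class. At IFI44L the 44 low-density CpGs fell by 32.1 ± 14.98 points (SD, n = 3) in the clones and the 11 high-density CpGs by 18.6 ± 9.91 points, although the latter began higher, at 95.2 to 99.3% against 69.8 to 88.5%. At IFI27 the 86 low-density CpGs fell by 29.3 ± 12.4 points and the 45 high-density ones by 17.9 ± 11.2 points, from 86.95 to 90.3% and 93.9 to 94.6%. At OASL the values were 20.9 ± 9.44 and 11.7 ± 9.94 points. At OAS1 the 37 low-density CpGs fell by 20.4 ± 6.39 points and the 24 high-density CpGs by 25.6 ± 15.2 points, from 49.4 to 59.4% and 80.4 to 89.5%. The same split in the bulk populations gave 43.7 ± 2.23 and 34.7 ± 0.239 points (SD, n = 2) at IFI44L and 46.2 ± 3.04 and 38.1 ± 5.52 points at IFI27. These differences between classes were not tested, and the classes differ in Baseline level and in their place relative to the starts.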
